A study of Homo sapiens with 16 samples.

Results

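The genes examined here encode enzymes that break down the extracellular matrix, a plasminogen activator and its receptor. The question was where p65 sits on chromatin near these genes in colon cancer cells with and without ERβ. They are 6 matrix metalloproteinases (MMP1, MMP3, MMP7, MMP9, MMP10 and MMP13), the urokinase plasminogen activator PLAU and its receptor PLAUR, which makes 8 of the 19955 protein-coding genes in the annotation. They were chosen by name and not by a limit on any measured value, although earlier results of these data were known. Each gene was read in bins of 200 bp on GRCh38 from 50 kb upstream to 10 kb downstream, and the whole cluster on chromosome 11 that carries 5 of the MMP genes was read from end to end, which gave 3582 bins. A bin was listed in a group when the mean signal of its 3 ChIP libraries was at least 2 and at least 4 times the signal of the matched input. Signal is the height of the deposited track, which the authors scaled to the same total of tags in every library.

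The series holds 16 tracks of ChIP-Seq against p65, the RELA subunit of NFκB, in 2 established human colon cancer lines, HT29 and SW480. HT29 mock and SW480 mock cells carried an empty vector, and HT29 ERβ and SW480 ERβ cells were stably transfected with estrogen receptor β, each as 3 ChIP libraries and 1 input. All cells received TNFα at 30 ng/ml for 30 min, the ERβ cells included, no estrogen was added, and untreated cells were not analysed here. Libraries are numbered 1 to 3, and the labels do not say whether they came from separate cultures, although the methods of the study call them biological replicates. Each ERβ cell line is compared with 1 mock line only, and the promoter of the construct and the number of clones are not given in the sources used here. The ERβ inputs also belong to another series of libraries, so the ChIP libraries and their input may stem from different preparations. As a check of the labels, coding exons of ESR2, which encodes ERβ, had 4.05 to 6.93 times the signal of its introns in HT29 ERβ and 2.40 to 3.09 times in SW480 ERβ, against 1.05 to 1.62 times in the mock libraries. The ratio was 2.36 in the HT29 ERβ input and 1.93 in the SW480 ERβ input. These are ratios of DNA signal and do not measure expression. The paper reports a higher level of the introduced ERβ in SW480 than in HT29.

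Matrix metalloproteinases are zinc-dependent enzymes that are mostly secreted as inactive proenzymes and cleave collagens, proteoglycans and other matrix proteins. Urokinase converts plasminogen into plasmin, which degrades fibrin and can activate several of the MMP proenzymes, and its receptor holds urokinase at the cell surface. Many of these genes are known to respond to TNFα, which releases NFκB into the nucleus, where its dimers bind κB sequences, often together with AP-1 on MMP promoters.

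The listed bins formed 9 regions of adjacent bins, each named by the start site of the nearest member in whose range it lies, or by MMP20 for the pair of regions inside that gene. The sequences below carry the results that follow and show what lay under the signal in 8 of them. They are the plus strand of GRCh38, 5′ to 3′, placed around the κB match nearest to the point of highest signal. Capitals mark matches to the κB consensus (κB for short) and to the AP-1 sequence TGACTCA on either strand.
PLAU −22.0 kb, chr10:73889125-73889274: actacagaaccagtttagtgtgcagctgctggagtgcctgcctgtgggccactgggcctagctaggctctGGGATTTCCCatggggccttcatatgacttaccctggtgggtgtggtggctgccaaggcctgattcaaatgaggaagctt
PLAU −1.8 kb, chr10:73909250-73909279: gacggtccctGGGAATTTCCtgataactaa
PLAUR −5.5 kb, chr19:43675606-43675755: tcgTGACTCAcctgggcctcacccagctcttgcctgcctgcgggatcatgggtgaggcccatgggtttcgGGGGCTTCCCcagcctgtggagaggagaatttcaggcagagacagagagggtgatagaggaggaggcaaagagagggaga
PLAUR +33.9 kb, chr19:43636229-43636378: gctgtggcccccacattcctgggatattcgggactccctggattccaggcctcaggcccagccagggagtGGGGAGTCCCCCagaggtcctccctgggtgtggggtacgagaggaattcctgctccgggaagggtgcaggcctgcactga
MMP9 −0.6 kb, chr20:46008234-46008383: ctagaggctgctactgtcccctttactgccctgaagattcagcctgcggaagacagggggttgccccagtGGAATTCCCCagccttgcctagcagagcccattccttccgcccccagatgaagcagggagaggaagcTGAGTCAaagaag
MMP1 +3.7 kb, chr11:102794517-102794666: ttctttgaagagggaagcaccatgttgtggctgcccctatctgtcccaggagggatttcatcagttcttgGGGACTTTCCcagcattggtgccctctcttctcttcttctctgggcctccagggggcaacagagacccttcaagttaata
MMP20 +25.0 kb, chr11:102600173-102600322: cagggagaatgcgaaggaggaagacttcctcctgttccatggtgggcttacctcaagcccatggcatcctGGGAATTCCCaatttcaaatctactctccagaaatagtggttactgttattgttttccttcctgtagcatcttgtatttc
MMP20 +22.0 kb, chr11:102603132-102603281: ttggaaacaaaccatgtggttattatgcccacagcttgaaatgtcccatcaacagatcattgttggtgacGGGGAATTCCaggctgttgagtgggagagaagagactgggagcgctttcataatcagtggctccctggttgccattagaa

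A κB match was present in 8 of the 9 regions and lay between 1 and 38 bp from the point of highest signal. It was 1 bp away at PLAU −1.8 kb and at MMP20 +22.0 kb, 6 bp at MMP1 +3.7 kb, 13 bp at MMP9 −0.6 kb, 15 bp at PLAUR −5.5 kb and 22 bp at MMP20 +25.0 kb. At PLAU −22.0 kb the nearest match was 34 bp away and crossed the edge of the highest bin, and at PLAUR +33.9 kb it was 38 bp away, with 3 matches that overlap one another and are shown as 1 stretch. The MMP9 −36.8 kb region, which covers part of the first exon of ZNF335, held no match to κB, AP-1 or AGGAAG. Of the highest bins of the 9 regions 7 held κB, against 38.6% of all 12569 listed bins of the genome and 2.91% of all bins of that length. The listed bins of the genome include the flanking bins of their regions, so these are not like sets. Of the other member bins, only the first of PLAU −22.0 kb held a whole match. AP-1 was found in the regions at PLAUR −5.5 kb, MMP9 −0.6 kb and MMP20 +25.0 kb, and single bins held it in 9.88% of listed bins and 2.99% of all bins. AGGAAG, the core that ETS factors read, occurs in 18.3% and TGTGGT, the RUNX core, in 13.4% of all bins, so that single matches to these short sequences carry little weight. A match describes the letters in a window and does not show which factor was bound.

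By these limits, 5 of the 8 members had a listed bin in at least 1 group, PLAU, PLAUR, MMP1, MMP9 and MMP10, where 37.4% of the 19040 genes that could be read had one. In HT29 mock it was 3 members (PLAUR, MMP1 and MMP10) against 22.5% of genes, and in HT29 ERβ the same 3 against 16.5%. No member had a listed bin in SW480 mock, against 7.94% of genes, and 5 had one in SW480 ERβ, against 33.1%. The 0 in SW480 mock rests on narrow misses, since it became 4, 2 and 2 members without its libraries 1, 2 and 3 and 3 members with the mean of the 4 inputs. MMP1 and MMP10 share their region, which lies in the ranges of both genes. No member was listed in all 4 groups, whereas 6.1% of genes were. MMP3, MMP7 and MMP13 had no listed bin in any group. Over the bins, 5 were listed in HT29 mock, 6 in HT29 ERβ, 2 in SW480 mock and 17 in SW480 ERβ, 19 in all, and without HT29 ERβ library 1 that group had 1. As shares of the 3582 bins these were 0.140%, 0.168%, 0.0558%, 0.475% and 0.530%, against 0.0404%, 0.0268%, 0.00989%, 0.0632% and 0.0829% of all bins of the genome, those far from genes included. Bins in MMP20, outside the range of every member, made up 0, 2, 2, 5 and 5 of these counts. Of the 19, 10 were listed in SW480 ERβ alone, where 43.6% of the listed bins of the genome were.

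**Figure D1:**
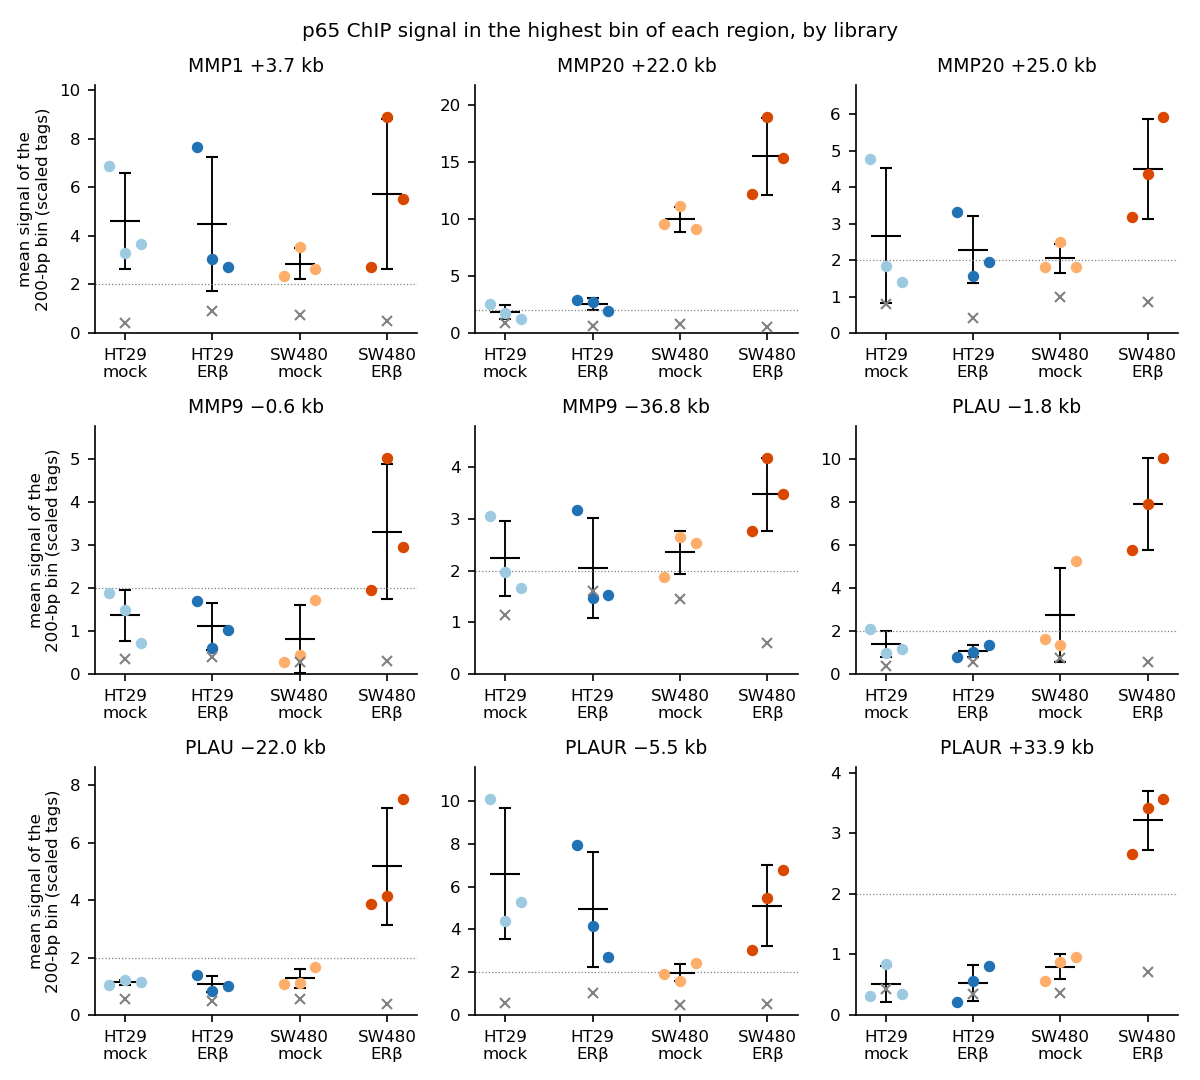
Signal in the highest 200-bp bin of each of the 9 regions (vertical axis, scaled tags) for the 4 groups (horizontal axis), with a point per ChIP library, the mean ± SD of 3 libraries, a cross for the matched input and a dotted line at the listing limit of 2. PLAU −22.0 kb and PLAUR +33.9 kb are at or below 1.66 in all libraries but those of SW480 ERβ, and MMP20 +22.0 kb is high in both SW480 groups.

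The libraries differed in how far their signal stood above background. At the 932 bins listed in all 4 groups, the median signal was 8.21, 4.10 and 4.27 in the HT29 mock libraries and 7.24, 3.53 and 3.37 in HT29 ERβ. It was 3.87, 4.45 and 4.53 in SW480 mock and 5.07, 9.62 and 8.26 in SW480 ERβ, so that both HT29 libraries numbered 1 stood above the others of their group, and all SW480 ERβ libraries were above all SW480 mock libraries. These bins passed the limits in every group, and their higher signal in SW480 ERβ moves with the gains described below. For that reason each comparison is also given with the libraries rescaled to the same median over these bins, which takes away any change that all such bins share. The tracks do not carry read numbers. The paper reports a range of mapped reads per sample, which was not used here, so depth was not taken into account.

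PLAU encodes the protease that activates plasminogen, and it had 2 regions, both listed in SW480 ERβ alone. The region 22.0 kb upstream lies between genes at chr10:73888801-73889400, and its nearest start site is that of CAMK2G, 14.5 kb away. In its highest bin the SW480 ERβ libraries had a signal of 3.87, 4.13 and 7.52, with a mean of 5.18 ± 2.04 (SD, n = 3) and 12.9 times the input. The SW480 mock libraries had 1.08, 1.10 and 1.66 there, the HT29 mock libraries 1.05, 1.21 and 1.16, and the HT29 ERβ libraries 1.38, 0.832 and 1.02. All 9 of those libraries lay below every SW480 ERβ library, and their group means were 2.00 to 2.28 times the inputs.

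The second PLAU region, chr10:73909001-73909400, lies 1.8 kb upstream of the canonical start and overlaps the first exon of another PLAU transcript, where that transcript has untranslated sequence. The SW480 ERβ libraries had 5.77, 7.92 and 10.1 in its highest bin, a mean of 7.92 ± 2.14 (SD, n = 3) and 14.2 times the input. SW480 mock had 1.63, 1.35 and 5.28, so that library 3 stood apart from its group but still below all SW480 ERβ libraries. This bin came close to the listing limits in SW480 mock, with a mean of 2.75 at 3.62 times the input. The HT29 libraries ranged from 0.961 to 2.09 in mock and from 0.784 to 1.34 in ERβ.

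PLAUR encodes the receptor that anchors urokinase at the membrane, and its main region, chr19:43675401-43676000, lies between genes 5.5 kb upstream of the start. Its highest bin had 10.1, 4.40 and 5.30 in HT29 mock, 7.93, 4.17 and 2.71 in HT29 ERβ and 3.06, 5.48 and 6.77 in SW480 ERβ. SW480 mock was the low group, with 1.93, 1.60 and 2.41, below every library of the other 3 groups. Its mean of 1.98 missed the limit of 2, although it was 4.30 times the input. The third bin of this region, chr19:43675801-43676000, was listed in the HT29 groups alone, with means of 3.49 in mock and 2.34 in ERβ against 0.563 in SW480 mock and 1.16 in SW480 ERβ.

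The other PLAUR region, chr19:43636201-43636400, lies past the 3′ end of the gene in an intron of CADM4, 3.6 kb from the start of CADM4 and near the end of the range read for PLAUR. SW480 ERβ had 2.65, 3.42 and 3.57, and every other library was between 0.220 and 0.951. The mean in SW480 ERβ was 3.21 ± 0.491 (SD, n = 3), 4.51 times an input of 0.712 that was itself the highest of the 4 inputs at this bin.

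MMP9 encodes gelatinase B, which cleaves denatured and basement-membrane collagens, and its promoter is known for κB and AP-1 elements. The region at chr20:46008201-46008400, 0.6 kb upstream of the start, holds both sequences. SW480 ERβ had 1.96, 5.03 and 2.96 there, a mean of 3.32 ± 1.56 (SD, n = 3), and SW480 mock had 0.280, 0.439 and 1.73. HT29 mock had 1.88, 1.49 and 0.720 and HT29 ERβ 1.69, 0.610 and 1.02, which overlap each other and reach close to the lowest SW480 ERβ library. The region was listed in SW480 ERβ alone, and HT29 mock missed both limits, with a mean of 1.37 at 3.90 times the input.

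A second region in the MMP9 range, chr20:45971801-45972200, lies 36.8 kb upstream at the start of ZNF335. Its highest bin had group means of 2.24, 2.05, 2.36 and 3.48 in HT29 mock, HT29 ERβ, SW480 mock and SW480 ERβ, so that all 4 groups passed the level of 2. The input was 0.603 in SW480 ERβ, the group listed, and 1.13, 1.61 and 1.45 in the other 3. In the other bin of this region SW480 ERβ had a mean of 3.25, and the other groups, with 1.41, 1.34 and 1.74, were under the level of 2.

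MMP1, the interstitial collagenase, had a region in an intron 3.7 kb downstream of its start, at chr11:102794401-102794800. It is also 13872 bp upstream of MMP10, a stromelysin, and is counted for both genes. In its highest bin, where an exon of another MMP1 transcript also falls, the HT29 mock libraries had 6.89, 3.28 and 3.65 and the HT29 ERβ libraries 7.64, 3.05 and 2.72. SW480 mock had 2.35, 3.55 and 2.65, and SW480 ERβ had 2.73, 8.89 and 5.50. The 4 groups overlap, with means of 4.61, 4.47, 2.85 and 5.71 in that order. SW480 mock was not listed, since its mean was 3.90 times the input.

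**Figure D2:**
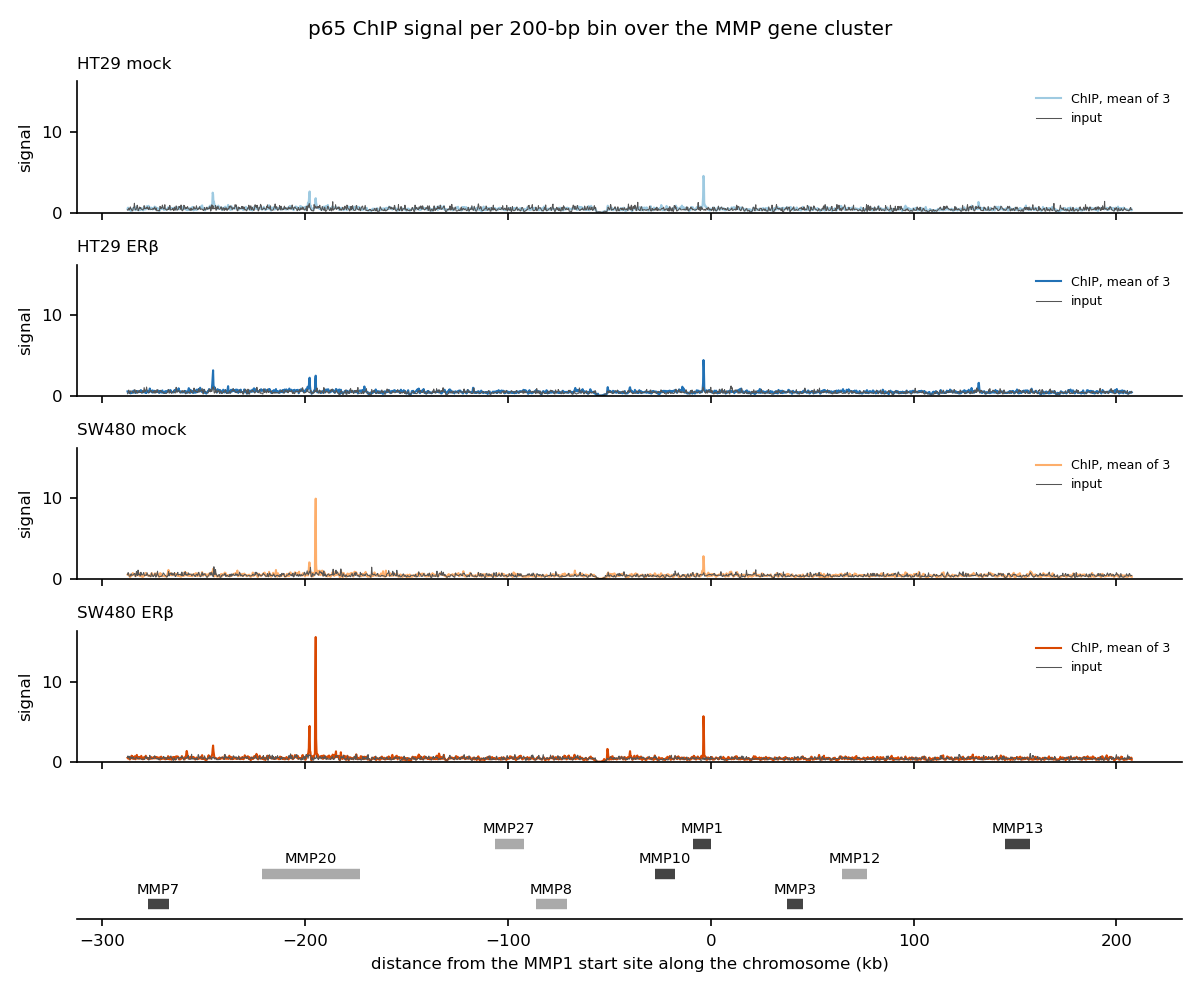
Mean p65 ChIP signal (coloured line, scaled tags) and input (grey line) per 200-bp bin over the MMP cluster in the 4 groups, with distance from the MMP1 start along the chromosome in kb on the horizontal axis and member genes as dark and other genes as light bars below. The tallest bin in SW480 lies in MMP20, with means of 9.98 in SW480 mock and 15.5 in SW480 ERβ, and the bin in MMP1 reaches 2.85 to 5.71 in the 4 groups.

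The highest signal of the cluster lay in MMP20, which encodes the enamel protease enamelysin and is not a member. The region MMP20 +22.0 kb, chr11:102603001-102603600, is in an intron, outside the range of every member and 72.6 kb upstream of MMP7. Its highest bin had 9.58, 11.2 and 9.18 in SW480 mock and 12.2, 19.0 and 15.3 in SW480 ERβ. HT29 mock had 2.51, 1.75 and 1.27 and HT29 ERβ 2.94, 2.75 and 1.92, so that all SW480 libraries exceeded all HT29 libraries. With a highest group mean of 15.5 it ranked at place 106 of the 12569 listed bins. MMP20 +25.0 kb, chr11:102600001-102600400, also in an intron of MMP20, had means of 2.68, 2.28, 2.05 and 4.50 and was listed in both ERβ groups. In HT29 the listing turned on the input, which was 0.805 in mock and 0.420 in ERβ, while the ChIP mean was higher in mock.

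The other members of the cluster had little signal. MMP3, stromelysin 1, had group means of 0.779 to 0.920 in the highest bin of its range, and MMP13, collagenase 3, of 0.871 to 0.980, all at most 2.50 times the input. MMP7, matrilysin, the MMP of epithelial cells, had its highest bin 21753 bp upstream in HT29 mock and 21953 bp upstream in the other groups, with means of 2.53 in HT29 mock, 3.20 in HT29 ERβ, 1.28 in SW480 mock and 2.08 in SW480 ERβ. It was at least 2.76 times the inputs and was listed nowhere, because the groups that passed the level of 2 stayed under 4 times the input. A level under the limits does not show that p65 was absent from a gene.

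**Figure D3:**
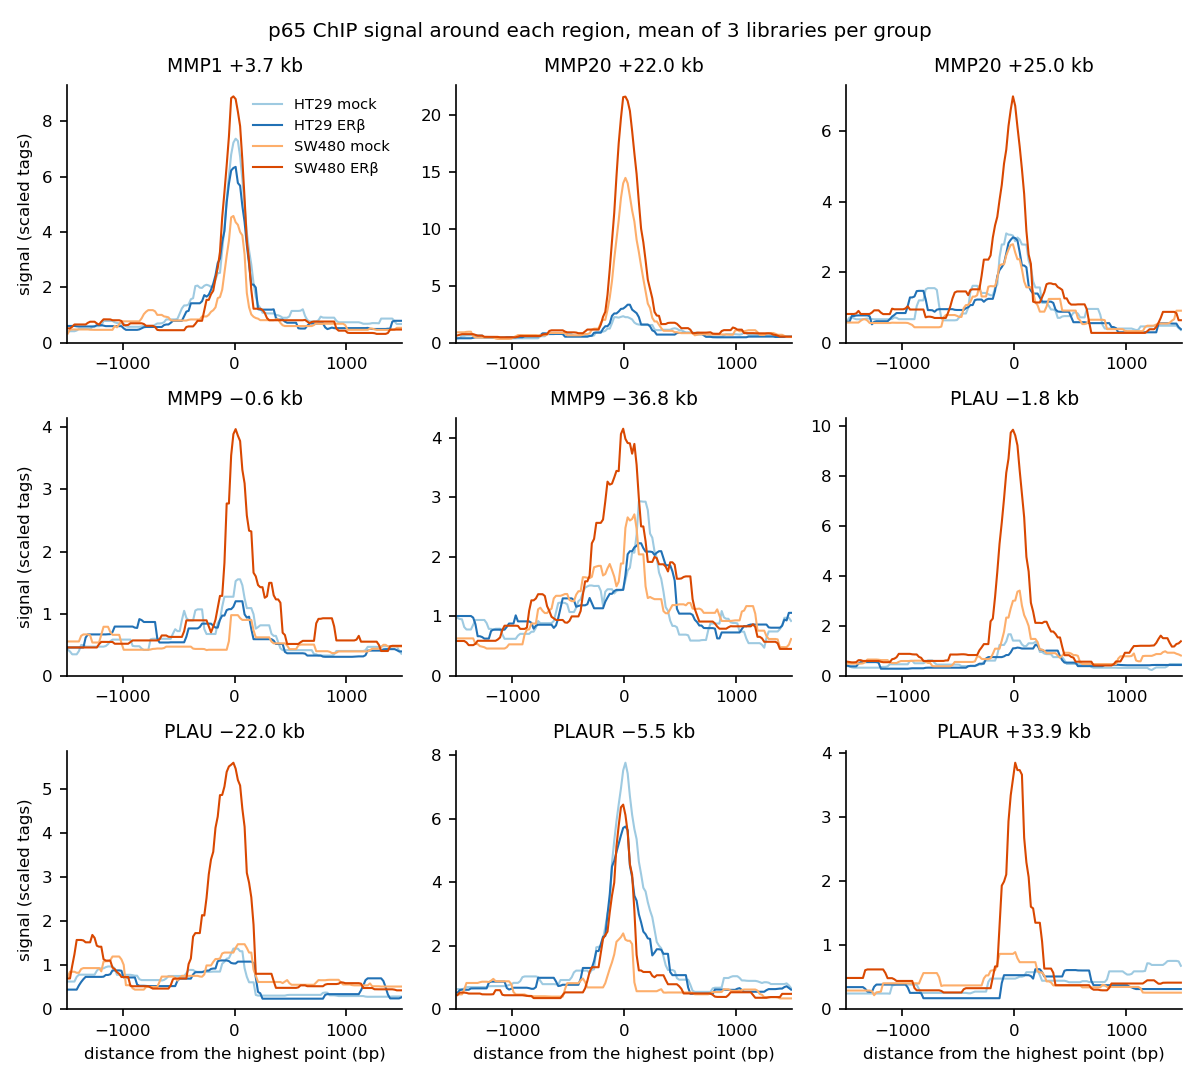
Mean p65 ChIP signal of the 3 libraries of each group (vertical axis, scaled tags, a separate scale in each panel) against distance in bp from the point of highest signal of each of the 9 regions. SW480 ERβ is the highest line at the summit in 8 panels and HT29 mock at PLAUR −5.5 kb. The point was located in the group with the highest mean in the highest bin of the region, which favours that group there.

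The effect of ERβ was tested within each line, first in SW480. Signal was higher in SW480 ERβ than in SW480 mock in all 19 listed bins, and 7 of them passed an adjusted p of 0.05 in limma's moderated test, which was fitted over 225888 bins. The 7 bins are those of PLAU −22.0 kb (3 bins), PLAU −1.8 kb (2 bins), PLAUR +33.9 kb and MMP9 −0.6 kb. The background is large: 22.7% of the listed bins of the genome passed in the same direction, and none in the other. All 7 had been listed in SW480 ERβ alone, so they were chosen in part for being high in that group, and the count is no support for the members. When bins were listed on the mean over all 12 libraries and the 4 inputs instead, a choice made after the data had been seen, 7 member bins were left, and 2 of them passed, the highest bins of PLAU −22.0 kb and PLAU −1.8 kb, against 16.8% of the 4336 bins listed in that way. That mean includes SW480 ERβ, so this listing also favours bins that are high there. In the highest bin of PLAU −22.0 kb the other groups had means of 1.14, 1.08 and 1.28, under the level of 2. Of the 19 bins, 3 passed without SW480 mock library 1, 2 without SW480 mock library 2, 4 without SW480 ERβ library 2 and 3 without SW480 ERβ library 3.

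On the log2(signal + 1) scale the highest bin of PLAU −22.0 kb rose by 1.40 (SE 0.24, limma adjusted p = 0.00073), and it passed in each of the 12 fits that left out a library. PLAUR +33.9 kb rose by 1.23 (SE 0.19, adjusted p = 0.00025) and also passed in all 12. For PLAU −1.8 kb the rise was 1.37 (SE 0.31, adjusted p = 0.0108), and it was 1.19 without SW480 mock library 1, 1.11 without SW480 mock library 2, 1.36 without SW480 ERβ library 2 and 1.20 without SW480 ERβ library 3, the 4 fits in which it did not pass. MMP9 −0.6 kb rose by 1.27 (SE 0.28, adjusted p = 0.00780), and did not pass without SW480 mock library 1 (1.06), SW480 mock library 2 (1.15) or SW480 ERβ library 2 (1.00).

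The remaining regions had higher means in SW480 ERβ but did not pass. PLAUR −5.5 kb differed by 0.99 (SE 0.33, limma adjusted p = 0.121) with no overlap between the SW480 groups, MMP20 +25.0 kb by 0.83 (SE 0.31, adjusted p = 0.178) and MMP1 +3.7 kb by 0.70 (SE 0.35, adjusted p = 0.384). MMP20 +22.0 kb differed by 0.57 (adjusted p = 0.359) and MMP9 −36.8 kb by 0.41 (adjusted p = 0.582). With the replicate number as a block, 14 of the 19 bins passed, in 8 of the 9 regions, against 52.4% of the 12566 listed bins that were fitted, and PLAUR −5.5 kb then had an adjusted p of 0.00075.

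Rescaling on the shared bins removed most of these calls. After it, 2 of the 19 bins passed, the highest bin of PLAU −22.0 kb at 0.83 (limma adjusted p = 0.0288) and MMP9 −0.6 kb at 0.79 (adjusted p = 0.0381), where 5.78% of the listed bins of the genome passed as higher. PLAUR +33.9 kb had 0.74 (adjusted p = 0.0521) and PLAU −1.8 kb 0.74 (adjusted p = 0.0574), just short of the threshold, and MMP1 +3.7 kb had 0.06. With the block and the rescaling together 5 bins passed, against 14.4% of the listed bins, and they included PLAUR +33.9 kb (adjusted p = 0.00469) and PLAU −1.8 kb (adjusted p = 0.0112). The median change of all 225888 bins was 0.04 as deposited and −0.25 after rescaling, and the calls over all bins went from 5235 higher and 215 lower to 811 higher and 6349 lower. The median over the 12566 listed bins was 0.62 as deposited and 0.09 after rescaling. Over the 19 member bins it was 0.77 and 0.24. How far the general rise of signal at strong sites in the SW480 ERβ libraries takes part in the gains at the members was not tested beyond this rescaling.

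**Figure D4:**
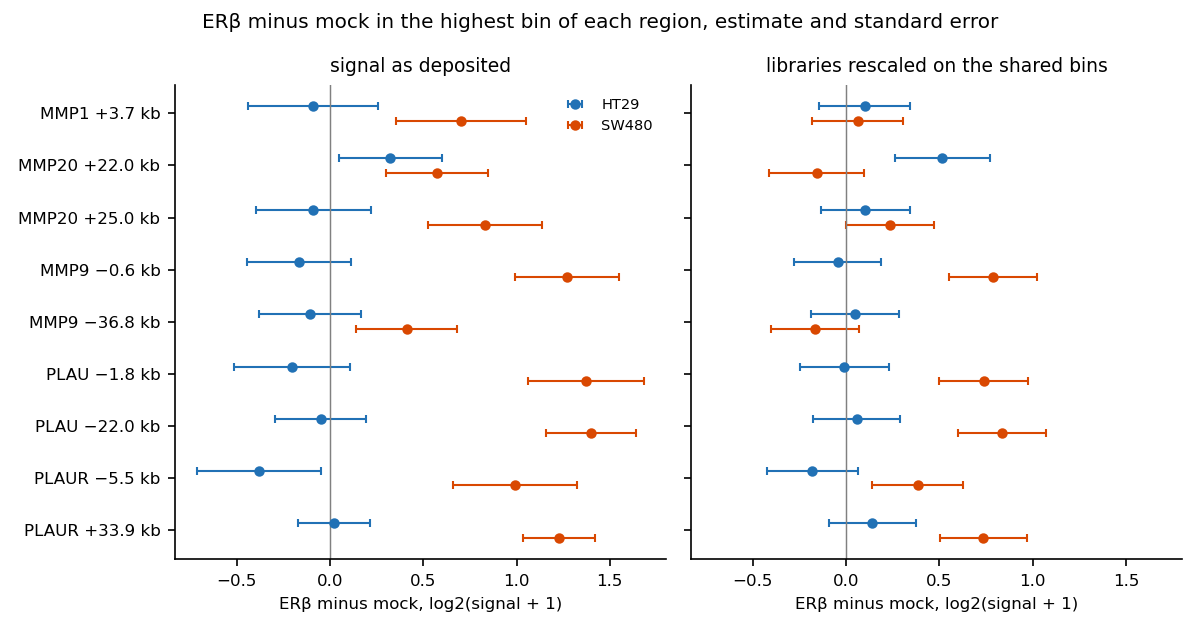
Difference between ERβ and mock in the highest bin of each region on the log2(signal + 1) scale (horizontal axis) in HT29 and SW480, as estimate and standard error from limma, with the signal as deposited on the left and the libraries rescaled on the shared bins on the right. On the left the SW480 estimates run from 0.41 to 1.40 and on the right from −0.17 to 0.83.

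In HT29, no member bin passed for the difference between ERβ and mock. Of the 19 bins, 14 had a lower and 5 a higher mean on the log2 scale in HT29 ERβ, with a median of −0.09 and a range of −0.55 to 0.32. The direction depended on the scaling, since 14 bins were higher and 5 lower after rescaling on the shared bins. The background was 0% of the listed bins and 0.00177% of all bins (4 bins, all higher) by limma's adjusted p, with 9661 of all bins under an unadjusted p of 0.05. The largest difference among the highest bins was at PLAUR −5.5 kb, −0.38 (SE 0.33, adjusted p = 1.00), where the HT29 groups overlap. At MMP1 +3.7 kb the difference was −0.09 (SE 0.35) and at PLAU −22.0 kb −0.05 (SE 0.24).

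By the paper, the lines differ in the level of ERβ, and its part in what follows was not tested. The ERβ effect was then compared between the lines by the difference of the differences. It was larger in SW480 than in HT29 past the threshold in 2 of the 19 bins, the highest bin of PLAU −22.0 kb with 1.45 (SE 0.34, limma adjusted p = 0.0404) and PLAUR +33.9 kb with 1.21 (SE 0.27, adjusted p = 0.0314), where 7.25% of the listed bins of the genome passed. Both bins had been listed in SW480 ERβ alone, a choice that favours a larger rise in that group, so the calls carry that limit. Of the 7 member bins listed on the mean over all libraries, PLAU −22.0 kb was the 1 that passed, against 3.71% of the bins listed in that way, and PLAUR +33.9 kb was not among the 7. That mean includes SW480 ERβ, so this listing carries the same limit. The calls were close to the threshold. PLAU −22.0 kb passed in 2 of the 12 fits that left out a library, without HT29 ERβ library 1 or SW480 ERβ library 1, and PLAUR +33.9 kb in 4, without HT29 mock library 1, HT29 ERβ library 3, SW480 mock library 3 or SW480 ERβ library 1. PLAUR +33.9 kb also did not pass with the matched input subtracted (1.17). With the replicate block 8 bins passed, against 38.3% of the listed bins of the genome. Leaving out a library gave 0 to 5, and after rescaling none passed, against 0.525%. With the block and the rescaling together 2 passed, PLAU −22.0 kb (adjusted p = 0.0452) and MMP9 −0.6 kb (adjusted p = 0.0483), against 6.55%. At PLAU −1.8 kb the difference of effects was 1.57 (SE 0.44, adjusted p = 0.0985) and at MMP9 −0.6 kb 1.44 (SE 0.39, adjusted p = 0.0893), which did not pass.

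Between the lines without ERβ, SW480 mock was above HT29 mock in 2 of the 19 bins past the threshold, both in MMP20 +22.0 kb, which lies outside the range of every member, and below it in 3, which are the bins of PLAUR −5.5 kb. That is a smaller share than the 46.1% of the listed bins of the genome that passed in either direction. The highest bin of MMP20 +22.0 kb was higher by 1.97 (SE 0.27, limma adjusted p = 1.5e-05) and that of PLAUR −5.5 kb lower, at −1.29 (SE 0.33, adjusted p = 0.00186). Both calls stood in all 12 fits without a library and after rescaling, at 2.24 and −1.07, and PLAUR −5.5 kb no longer passed when the matched input was subtracted, at −1.41. At MMP1 +3.7 kb the difference was −0.50 (SE 0.35, adjusted p = 0.232), and it passed with the replicate block (adjusted p = 0.0311) but not after rescaling (−0.27). At the highest bin of PLAU −1.8 kb it was 0.52 (SE 0.31, adjusted p = 0.157), and this bin passed as higher in SW480 mock after rescaling (0.74, adjusted p = 0.00758), with the block (adjusted p = 0.0296) and without both HT29 libraries numbered 1 (adjusted p = 0.0406). Without SW480 mock library 3, which stood apart there, the difference was 0.08. The input of this bin was also higher in SW480 mock (0.760) than in HT29 mock (0.376), and the means were 3.62 and 3.72 times these inputs.

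With ERβ in both lines, 13 of the 19 bins were higher in SW480 than in HT29 and none was lower, against 49% higher and 12.3% lower among the listed bins of the genome. Since 10 of the 19 bins had been listed in SW480 ERβ alone, the listing itself favoured this direction. Of the 7 bins listed on the mean over all libraries, 4 were higher, against 38.9% of the bins listed in that way. That mean includes SW480 ERβ too, so this listing also favoured the same direction. MMP20 +22.0 kb was higher by 2.22 (SE 0.27, limma adjusted p = 1.2e-06), PLAU −1.8 kb by 2.10 (SE 0.31, adjusted p = 1.2e-05), PLAU −22.0 kb by 1.53 (SE 0.24, adjusted p = 2.2e-05) and PLAUR +33.9 kb by 1.47 (SE 0.19, adjusted p = 2.8e-06). PLAUR −5.5 kb, which was lower in SW480 in the mock comparison, had a difference of 0.08 (SE 0.33, adjusted p = 0.845) here. With the replicate block 14 bins were higher and 1 lower, the third bin of PLAUR −5.5 kb, against 58.2% and 16.1%. After rescaling, 6 bins were higher and 1 lower, against 28.6% and 24.7%. With the block as well, 10 were higher and 3 lower, against 33.8% and 27.9%, and the 3 are the bins of PLAUR −5.5 kb.

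The promoters of the members, from 1000 bp upstream to 100 bp downstream of the canonical start, had low signal, with the highest means at MMP9 and PLAU in SW480 ERβ. Mean promoter signal of the 8 genes lay between 0.371 and 1.45, and the median over the 19040 promoters read ranged over the groups from 0.442 to 0.590. The MMP9 promoter, which contains the −0.6 kb region, had 0.818 ± 0.237 in HT29 mock, 0.696 ± 0.195 in HT29 ERβ, 0.576 ± 0.272 in SW480 mock and 1.45 ± 0.306 in SW480 ERβ (SD, n = 3 each), at inputs of 0.282 to 0.393. The SW480 groups did not overlap, and the difference of 0.64 (SE 0.14) had a limma adjusted p of 0.103. With the replicate block it passed (adjusted p = 0.0134), as did the larger effect in SW480 than in HT29 (adjusted p = 0.0467). After rescaling both calls were lost, with a difference of 0.26 (adjusted p = 0.0840 with the block) and a difference of effects of 0.26 (adjusted p = 0.198 with the block).

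**Figure D5:**
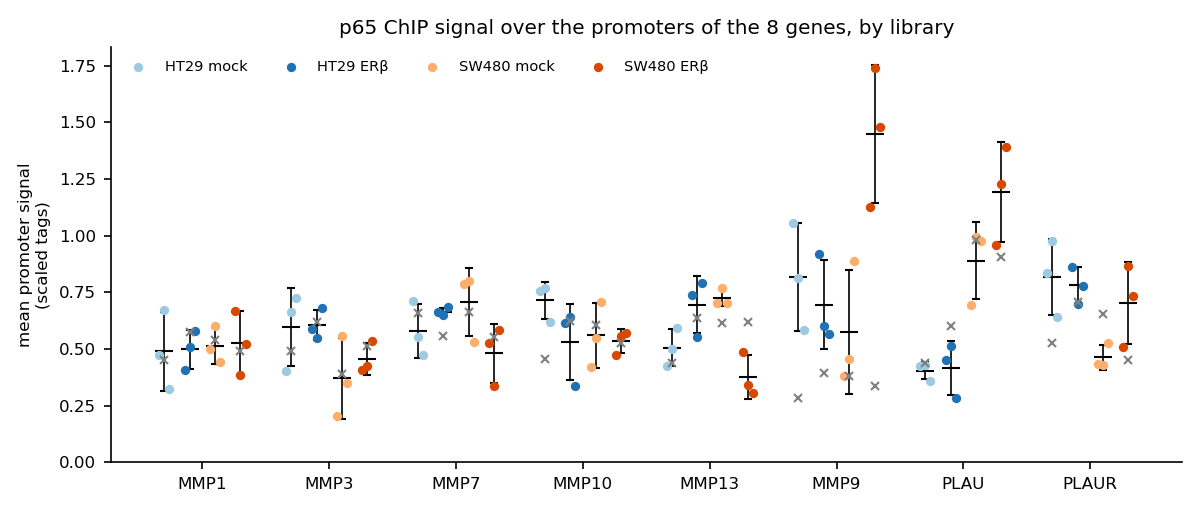
Mean promoter signal (vertical axis, scaled tags) of each of the 8 members in the 4 groups, with points for the ChIP libraries, the mean ± SD of 3 libraries and a cross for the matched input. MMP9 in SW480 ERβ, with a mean of 1.45, and PLAU in both SW480 groups, with means of 0.889 and 1.19, are the highest, and the PLAU inputs are also higher in SW480 than in HT29.

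On the signal as deposited and without the block, no member promoter passed for the effect of ERβ in HT29, where 0% of all promoters did, in SW480, where 0.173% did, or for the difference between these effects, where 0.0105% did. With the block, MMP9 was the 1 member that passed in SW480 and for the difference between the effects, and the shares of all promoters were 3.17% and 0.809%. For the SW480 effect MMP9 also passed with the input subtracted (0.84), among promoters with a mean of at least 0.3 and without both HT29 libraries numbered 1, and PLAU passed with the input subtracted (0.34). In SW480 mock against HT29 mock, PLAU was higher by 0.42 (SE 0.10, limma adjusted p = 0.0106) and PLAUR lower, at −0.31 (SE 0.09, adjusted p = 0.0378), with 18.3% of all promoters past the threshold. At the PLAU promoter the SW480 mock input (0.981) was also above the HT29 mock input (0.438), and with the input subtracted the difference was 0.01. PLAUR did not pass after rescaling (−0.22, adjusted p = 0.314), with the input subtracted (−0.36) or with promoters of 250 bp upstream to 50 bp downstream (−0.14). It also did not pass without HT29 mock library 1 (−0.30), HT29 mock library 2 (−0.25), or any one of the SW480 mock libraries 1 (−0.29), 2 (−0.29) and 3 (−0.34). In SW480 ERβ against HT29 ERβ, PLAU was higher by 0.63 (SE 0.10, adjusted p = 0.00087) and MMP9 by 0.53 (SE 0.14, adjusted p = 0.0139), and MMP13 was lower, at −0.30 (SE 0.08, adjusted p = 0.0156), with 28.9% of all promoters past the threshold. MMP9 did not pass without HT29 ERβ library 2 (0.49), HT29 ERβ library 3 (0.47) or SW480 ERβ library 2 (0.44), nor MMP13 without HT29 ERβ library 3 (−0.26), SW480 ERβ library 2 (−0.28) or SW480 ERβ library 3 (−0.26). With promoters of 250 bp upstream to 50 bp downstream, MMP9 (0.26) and MMP13 (−0.14) did not pass. MMP13 also did not pass with the input subtracted (−0.12). The MMP13 mean was 0.377 in SW480 ERβ and 0.695 in HT29 ERβ, at inputs of 0.618 and 0.636. None of the 3 passed after rescaling on the shared bins, where 2.11% of all promoters did. PLAU then had 0.29 and MMP9 0.15, while MMP13 had −0.52 (adjusted p = 0.113), farther from 0 than before. With the block and the rescaling together, MMP3, MMP7, MMP13 and PLAUR passed as lower in SW480 ERβ than in HT29 ERβ, with limma adjusted p values from 0.0088 to 0.0447, against 12.3% of all promoters. In that fit MMP7 and MMP13 also passed as lower in SW480 ERβ than in SW480 mock, against 29.7% of all promoters, and for the difference between the effects, against 17.1%. Rescaling had moved the median SW480 ERβ effect over all promoters from 0.04 to −0.20. MMP1, MMP3, MMP7 and MMP10 did not pass in any comparison on the signal as deposited, with or without the block. With the matched input subtracted, MMP10 passed as lower in HT29 ERβ than in HT29 mock (−0.33) and as lower in SW480 mock than in HT29 mock (−0.29), and for the difference between the effects of ERβ the promoters of MMP9 (1.07), PLAUR (0.57), MMP10 (0.31) and MMP7 (−0.22) passed. That fit took the 1 input of a group from all its libraries and set negative values to 0. The MMP10 libraries of HT29 ERβ, at 0.614, 0.641 and 0.339 against an input of 0.624, came to 0 or near it. So did the PLAU libraries of SW480 mock, at 0.693, 0.995 and 0.979 against 0.981. The share of all promoters past the threshold in that fit is not given here.

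RefSeq promoters of GRCh38, which span 250 bp before to 50 bp after the start, were matched for 4 of the 8 members, MMP7, MMP10, PLAU and PLAUR, while MMP1, MMP3, MMP9 and MMP13 had no entry. None of the 4 held κB, which 10.0% of the 21548 promoters of that table do. AP-1 lay 67 bp upstream of the start in MMP7 and 186 bp upstream in PLAUR, where 4.03% of promoters hold it. For PLAU the RefSeq start is at −522 bp from the canonical start used above.

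Of the other genes of the same systems, 33 could be read, 16 further MMP genes, 5 MMP inhibitors (the TIMP genes and RECK) and 12 genes of the plasminogen system. A listed bin lay in the range of 10 of the 33 in HT29 mock, 6 in HT29 ERβ, 6 in SW480 mock and 16 in SW480 ERβ, and 17 had one in any group, where 22.5%, 16.5%, 7.94%, 33.1% and 37.4% of all genes did. Of the plasminogen genes the counts were 7, 3, 3 and 10 of 12, of the MMP genes 2, 3, 3 and 5 of 16 and of the inhibitors 1, 0, 0 and 1 of 5. No promoter of the 33 passed for the effect of ERβ in either line, and with the replicate block 2 plasminogen promoters passed in SW480, where 3.17% of all promoters did. In SW480 mock against HT29 mock 6 MMP promoters, 1 inhibitor promoter and 1 plasminogen promoter were higher, with 18.3% of all promoters past the threshold. In SW480 ERβ against HT29 ERβ 5, 4 and 2 were higher, with 28.9% of all promoters past it, and none of the 33 was lower in either comparison. After rescaling 5, 2 and 1 passed between the mock lines, against 13.5% of all promoters, and none between the ERβ lines, against 2.11%. With the replicate block the mock lines had 5, 2 and 1 higher and 2 plasminogen promoters lower, where 3241 of all 19040 promoters were higher and 964 lower.

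Of the related genes, those with the highest signal in a listed bin were read one by one. ANXA2, annexin A2, which binds plasminogen at the cell surface, had 9.05, 13.7 and 13.8 in SW480 ERβ against 2.80, 1.77 and 5.58 in SW480 mock, a rise of 1.66 (SE 0.35, limma adjusted p = 0.00560) and of 0.98 after rescaling (adjusted p = 0.0147). The SW480 groups did not overlap, and 22.7% of the listed bins of the genome passed as higher. This bin was picked for its high signal, and the rise did not pass without SW480 mock library 2 (1.37), SW480 ERβ library 2 (1.57) or SW480 ERβ library 3 (1.56). The ERβ effect was larger in SW480 than in HT29 by 2.17 (limma adjusted p = 0.0323), where 7.25% of the listed bins passed. That call stood in 4 of the 12 fits without a library, those without HT29 mock library 2, HT29 ERβ library 1, SW480 mock library 3 or SW480 ERβ library 1, and the other 8 gave 1.86 to 2.26. After rescaling the difference of effects was 1.37 (adjusted p = 0.0631, and 0.00596 with the block).

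Beside ANXA2 and MMP20, the genes MMP25, HPN, MMP17, SERPINA5 and LRP1 had group means of 16.1, 10.7, 10.0, 8.76 and 6.20 in SW480 ERβ and of 9.72, 7.52, 4.44, 3.73 and 3.75 in SW480 mock. None of these 5 passed for the effect of ERβ in SW480, with limma adjusted p values from 0.0694 for MMP17 to 0.707 for HPN. With the replicate block MMP25 (adjusted p = 0.0111), MMP17 (adjusted p = 0.00038) and SERPINA5 (adjusted p = 0.00017) passed, and none of the 5 did after rescaling, with or without the block. MMP25, a membrane-anchored MMP, had a mean of 10.3 in HT29 mock and 8.18 in HT29 ERβ, and its bin lies nearest to the start of IL32. HPN, a membrane serine protease, had 13.7 in HT29 mock, its highest group, in a bin nearest to GRAMD1A.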

How the data were processed

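The authors mapped unique reads to GRCh38 (hg38) with STAR and made tag directories with HOMER, and they deposited for each library a coverage signal that counts tags over each position. Per the deposited tracks, the signal is scaled to a common total of tags and to fragments of 100 bp, and values below 0.05 are absent. The tracks hold no read counts, so the edgeR test of the study could not be run. Nor can the depth of a library be read from them. No interval for counting error is therefore given. P-values rest on the spread between libraries within groups, which limma pooled over the 4 groups and moderated over all features. A p-value for SW480 therefore depends on the HT29 libraries too.

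Signal was averaged in bins of 200 bp with Python 3.11.15, numpy 2.4.6 and pandas 2.3.3, and sequences were read with pysam 0.24.0. Genes came from GENCODE 44, with the canonical start, and 915 genes with signal in too few bins, SERPINF2 among them, were not analysed here. Bins with a mean of at least 0.7 over the 12 ChIP libraries (225888 bins, among them 12566 of the 12569 listed ones) and 19040 promoters were each fitted on log2(signal + 1) with limma 3.58.1 in R 4.3.3, with all 4 groups in 1 fit and Benjamini-Hochberg adjustment over all features, at a threshold of 0.05. The fit and the bin averages were checked on simulated data.

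The 8 members, the gene lists and the motifs were chosen with earlier results of these data known. All members and regions are named, and of the related genes those among the 8 with the highest group mean in a listed bin, except 1 that is not reported here. Libraries of the same number in the same line deviated together from their group means, with correlations of 0.58, 0.23 and 0.26 in HT29 and 0.32, 0.14 and 0.23 in SW480. All are above 0.1, and the numbers were taken to pair the libraries from these values alone, since the labels do not say what a number shared. In HT29, mock library 2 and ERβ library 3 had 0.28, above the value for their own numbers. The fit with the replicate number as a block is given beside the counts that it moved.

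The κB consensus was searched on both strands, as were the AP-1, ETS and RUNX sequences spelled out in the report. The fits were repeated with a pseudocount of 0.5, other filters and promoter limits, the input subtracted, libraries rescaled to the median of the 932 bins listed in all groups, and each library left out in turn. Listing was repeated with a mean of 3, with 6 times the input, in bins shifted by 100 bp, with the mean of the 4 inputs and with 2 of 3 libraries. Leaving out both HT29 libraries numbered 1, the block together with the rescaling, and listing on the mean of all libraries were added after seeing the data.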

Additional observations from a re-analysis of the deposited data

Results flagged for a closer look

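The effect of ERβ differed between the lines by a test of the difference itself at 2 member bins and, among the related genes read one by one, at the highest bin of ANXA2. Other related genes are not counted here. At PLAU −22.0 kb the effect on the log2(signal + 1) scale was larger in SW480 than in HT29 by 1.45, and at PLAUR +33.9 kb by 1.21. Both bins had been listed in SW480 ERβ alone, which favours a larger rise there. Both lost the call after rescaling on the shared bins (0.78 and 0.60), although PLAU −22.0 kb passed when the replicate block was added (limma adjusted p = 0.0452), and with both HT29 libraries numbered 1 left out PLAU −22.0 kb had a limma adjusted p of 0.0153 and PLAUR +33.9 kb of 0.0523. PLAUR +33.9 kb also lost its call with the matched input subtracted (1.17). The difference of effects was 2.17 for ANXA2, which did not pass after rescaling (1.37, limma adjusted p = 0.0631, and 0.00596 with the block). These bins are high in SW480 ERβ, and the median signal at the bins listed in all groups was also higher in each SW480 ERβ library (5.07 to 9.62) than in each SW480 mock library (3.87 to 4.53). Dixon’s test for a single library that stands apart was not run.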

How the results depend on the processing

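With 6 times the input, HT29 mock had 3 listed member bins in place of 5, HT29 ERβ had 0 bins and 0 genes in place of 6 and 3, and SW480 ERβ had 10 bins in place of 17. HT29 ERβ had 3 bins with a mean of 3 or with 2 of 3 libraries, and 1 without HT29 ERβ library 1 or both HT29 libraries numbered 1. Leaving out a library gave 1 to 9 bins there. SW480 mock had 3 genes and 5 bins with the mean of the 4 inputs and 2 genes in shifted bins, and leaving out a library gave 0 to 4 genes and 2 to 5 bins. For ERβ in SW480, 7 member bins passed, and 2 did after rescaling, 14 with the replicate block, 11 without both HT29 libraries numbered 1 and 2 to 8 when a library was left out. The interaction had 2 bins, with 0 after rescaling, 8 with the replicate block and 0 to 5 when a library was left out. For the mock lines, 5 bins passed, 3 with the input subtracted and 8 with the replicate block, with or without rescaling, and 2 promoters, against 1 after rescaling, with the input subtracted, with the short promoter or without both HT29 libraries numbered 1, and 1 to 2 when a library was left out. With the input subtracted, the 1 promoter between the mock lines was MMP10, which did not pass on the signal as deposited. For the ERβ lines 13 bins passed, 7 after rescaling, and 3 promoters, 0 after rescaling, 1 with the short promoter and 1 to 3 when a library was left out. No promoter passed for ERβ in HT29 (1 with the input subtracted) or in SW480 (2 with the input subtracted, 1 with the replicate block, MMP9, 2 with block and rescaling, 1 with a promoter mean of at least 0.3 and 1 without both HT29 libraries numbered 1), or for the interaction (4, then 1 with the replicate block and 2 with block and rescaling). PLAUR −5.5 kb between the ERβ lines turned from 0.08 to −0.51 with block and rescaling. The cause of these shifts was not tested. On the signal as deposited, the replicate block changed no other count of member bins or member promoters by over 1.5 times. On the rescaled signal it gave 5 bins in place of 2 for ERβ in SW480, 2 in place of 0 for the interaction, and 13 in place of 7 bins and 4 in place of 0 promoters for the ERβ lines. Depth was not taken into account, and a bin that was not listed can hold p65.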
